A study of Physcomitrium patens with 47 samples.

Results

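COX11 knockout plants (COX11 KO) of the moss Physcomitrium patens were compared with themselves at 2 times of day, the end of the night (zeitgeber time 0, ZT0, the moment the lights come on) and midday (ZT6, after 6 h of light). The 10 libraries were those whose titles name COX11 KO line 150 or 152 at ZT0 (5 libraries) or ZT6 (5 libraries), out of 47 in the series. At ZT0 there were 3 libraries of line 150 and 2 of line 152, and at ZT6 2 and 3. Both lines are independent disruptions of the gene by an antibiotic resistance cassette brought in by homologous recombination, so every COX11 KO library also carries a cassette. The other libraries used here were COX11 KO at ZT2 (5), wild type (WT) at ZT0 (6) and ZT6 (8), and NDUFA5 KO lines 46 and 48, disrupted in the same manner, at ZT0 (4) and ZT6 (5). The title of NDUFA5 KO library 46-3 at ZT6 names another line than its characteristics do. All plants were protonema, the filaments that grow first, together with young gametophores, the leafy shoots, kept over liquid medium in closed boxes, with light and dark periods of equal length. Boxes for ZT0 had been wrapped in foil from dusk and their plants were frozen under dim green light, whereas freezing at ZT2 and ZT6 took place in the light of the growth room. Clock time, light and handling can therefore not be told apart in any difference between ZT0 and ZT6.

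COX11 is an assembly factor that brings copper into cytochrome c oxidase, the respiratory complex IV, which passes electrons to oxygen at the end of the mitochondrial chain. NDUFA5 is a subunit of complex I, where electrons enter that chain. In a plant the night is the period in which respiration of stored carbon is the main source of ATP, and in the light photosynthesis feeds the same pools. Many plant transcripts follow light, sugar status and the circadian clock over the day. The comparison asks how far transcript levels still move between night and midday in plants without COX11.

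RNA was measured by 3′ tag sequencing, in which a transcript gives tags from its 3′ end whatever its length. Levels are given as CPM, the count of a gene as a share of its library's gene counts on a common scale, after TMM, a factor for each library that sets the bulk of genes level. Gene counts lay between 4060126 and 5985411 in the ZT0 libraries and between 4786733 and 6035911 in the ZT6 libraries. The deposited table lists genes by identifier (ID) without names, so neither gene functions, nor the loss of COX11 transcript, nor markers of the labelled tissue could be checked.

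The ZT0 and ZT6 libraries separated on the first principal component of log2 CPM over the 10 libraries, which held 61.1% of the variance. Scores at ZT6 ran from 51.6 to 63. At ZT0 4 libraries scored between -67.5 and -59.6, and library 152-1 stood apart at -36.6. Placed on the genes called at least 2-fold changed without it, 152-1 at ZT0 lay 27.6% of the way from the other ZT0 libraries to the ZT6 libraries for rising genes (median of 1860 genes), and 23.1% for falling genes (1885). The other 4 ZT0 libraries lay between -9.43% and 6.4%, and the 5 ZT6 libraries between 89.5% and 104%. This library also carries a lower sample code number than the other ZT0 libraries, in the range of 4 of the 5 ZT6 libraries. What the code numbers stand for is not stated in the labels, and their part in its position was not tested.

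**Figure D1:**
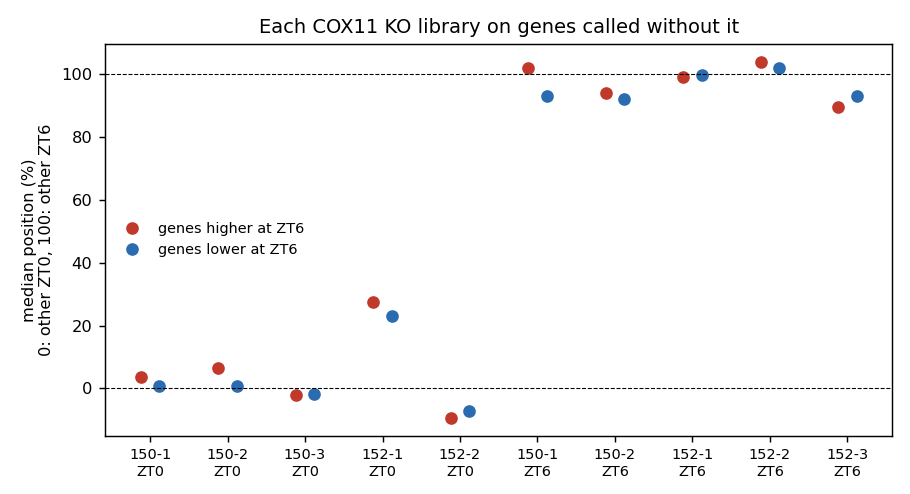
Each COX11 KO library (x axis) is placed on the change of the genes called at least 2-fold higher (red) or lower (blue) at ZT6 in a fit without that library. The y axis is the median position in percent, with 0 the mean of the other ZT0 libraries and 100 the mean of the other ZT6 libraries; 152-1 at ZT0 lies at 27.6% and 23.1%, and the other ZT0 libraries at 6.4% or less.

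Between the end of the night and midday, 9433 of 18460 genes tested changed in COX11 KO, 51.1% of them (edgeR quasi-likelihood test, false discovery rate, FDR, 0.05). At midday 4435 were higher and 4998 lower. Most changes were moderate, with a median log2 fold change of 0.84 for the higher and -0.78 for the lower genes, against -0.04 over all genes tested. The 2-fold mark was reached by 1702 higher and 1792 lower genes, together 18.9% of those tested, the 4-fold mark by 338 and 463, and the 8-fold mark by 99 and 142. Since the RNA comes from whole plants, a lower level can stand for less RNA per cell or for fewer cells of a type, and these cannot be told apart.

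The groups did not overlap in 6588 genes (35.7%), with every ZT6 library above every ZT0 library in 3153 and below in 3435. Of these, 6378 were among the 9433 called. For the other 3055 called genes at least 1 library of either time fell within the range of the other. Without 152-1 at ZT0 the count of called genes was 9442, and 8977 of the 9433 were called in the same direction. Leaving out each of the 10 libraries in turn, 7466 genes (79.1%) were called in the same direction in every one of the 10 fits. With the code block of the libraries as a covariate 7762 genes were called, and 76.8% of the 9433 were called there in the same direction. Apart from 152-1, no ZT0 library of COX11 KO shares a code block with a ZT6 library of COX11 KO. The comparison thus runs largely along the block, and the fit with this covariate leans on 152-1 and on the other groups of libraries. Within the lower code numbers alone, where 152-1 is the single ZT0 library against 4 ZT6 libraries, 2928 were called.

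**Figure D2:**
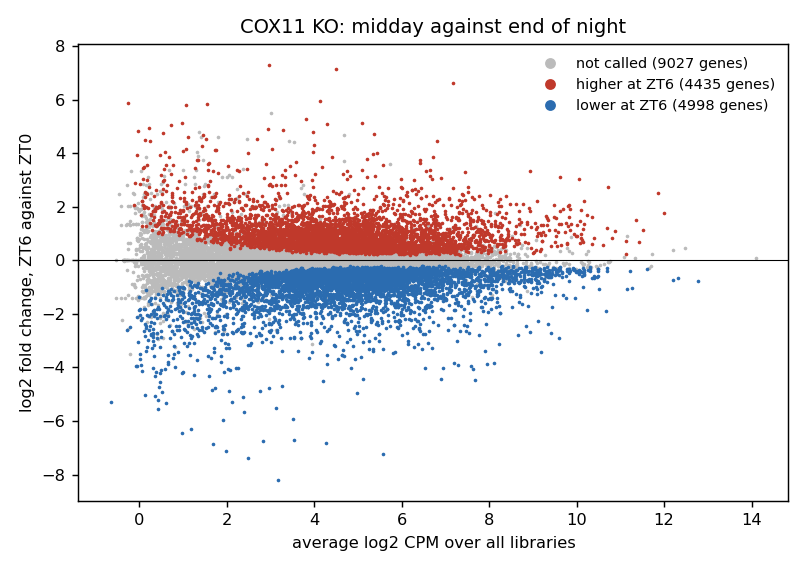
Each point is 1 of the 18460 genes tested, by its average log2 CPM over all 47 libraries (x axis) and its log2 fold change in COX11 KO, ZT6 against ZT0 (y axis). The 4435 genes called higher are red and the 4998 called lower are blue; calls at low levels begin at larger fold changes than calls at high levels.

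Values per library are listed below in the order 150-1, 150-2, 150-3, 152-1, 152-2 for ZT0 and ZT2 and 150-1, 150-2, 152-1, 152-2, 152-3 for ZT6. Among genes with an average log2 CPM above 1 and no overlap between the times, Pp3c24_9770 and Pp3c10_4690 had the largest rises by fitted log2 fold change. The fitted value of Pp3c24_9770 depends on the prior count, so its rank is no measure of size. Pp3c10_4690 stood at 1.14, 0.349, 0, 0.237 and 0.451 CPM at ZT0 and at 53.8, 64.8, 63.8, 60.7 and 56.2 CPM at ZT6. The night libraries were all near the limit of detection and the midday libraries lay close together. Its mean went from 0.436 ± 0.43 to 59.9 ± 4.78 CPM (SD, n = 5 each), a log2 fold change of 7.14 ± 0.521 (standard error, SE, edgeR adjusted p = 7.83e-15). Pp3c24_9770 had 0 counts in all 5 ZT0 libraries and 4.19, 3.25, 1.57, 4.29 and 4.23 CPM at ZT6. Against a floor of 3 counts over the ZT0 group it was at least 32.3-fold higher (edgeR adjusted p = 0.000351).

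The largest falls by fitted log2 fold change under the same conditions were those of Pp3c3_37497 and Pp3c3_37540. Pp3c3_37540 stood at 118, 125, 112, 132 and 115 CPM at ZT0 and at 0.465, 0.765, 0.348, 0.824 and 1.59 CPM at ZT6. Every midday library was thus at 1.59 CPM or less and every night library at 112 CPM or more. The mean went from 121 ± 7.88 to 0.797 ± 0.483 CPM, a log2 fold change of -7.21 ± 0.357 (SE, edgeR adjusted p = 4.17e-20). Pp3c3_37497 had 26.8, 25.5, 15.9, 18.5 and 16.7 CPM at ZT0, and at ZT6 3 counts in all, each of them in library 150-1. The ratio of ZT0 to ZT6 was 197 (95% counting interval 66.9 to 956; edgeR adjusted p = 4.87e-13). The pair share an ID prefix and lie close in ID number; whether they share sequence or reads was not tested.

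Each of these 4 genes also changed in the same direction in WT, and none passed the test of a difference from WT (edgeR adjusted p = 0.745 for Pp3c24_9770, 0.372 for Pp3c10_4690, 0.219 for Pp3c3_37497 and 0.163 for Pp3c3_37540). In WT Pp3c10_4690 went from a median of 0.482 CPM (0 to 3.45, n = 6) to 63.5 CPM (33.6 to 75.5, n = 8). Pp3c3_37540 went in WT from 111 CPM (80.9 to 167) to 1.16 CPM (0.435 to 4.16).

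Among genes changed at least 2-fold without overlap, the most abundant over the 10 libraries were Pp3c18_8100 and Pp3c9_3440 on the rising side. Pp3c9_3440 had 763, 665, 763, 979 and 680 CPM at ZT0 and 5310, 5150, 4060, 4570 and 3140 CPM at ZT6. Its log2 fold change was 2.53 ± 0.235 (SE, 770 ± 125 to 4450 ± 882 CPM, n = 5 each, edgeR adjusted p = 7.42e-12). At ZT2 it was higher still, between 6190 and 6810 CPM, and the step from ZT2 to ZT6 was a fall of 0.56 on the log2 scale (standard error 0.223, edgeR adjusted p = 0.0421). Pp3c18_8100 rose from 1730, 1790, 2210, 2450 and 1930 CPM to 6170, 4230, 4040, 4250 and 3350 CPM. The 2 ranges are separated by the gap between 2450 and 3350 CPM (log2 fold change 1.13, standard error 0.174, edgeR adjusted p = 7.6e-07).

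On the falling side the most abundant were Pp3c3_15000 and Pp3c23_15870. Pp3c3_15000 had 2240, 1640, 2440, 2420 and 2410 CPM at ZT0 and 657, 743, 589, 499 and 554 CPM at ZT6, a log2 fold change of -1.87 ± 0.175 (SE, edgeR adjusted p = 8.7e-12). The fall was already there at ZT2, where the libraries lay between 537 and 708 CPM. Pp3c23_15870 had 1730, 1520, 1460, 1790 and 1460 CPM at ZT0, between 1140 and 1820 CPM at ZT2, and 571, 726, 900, 909 and 644 CPM at ZT6. It fell by 1.09 on the log2 scale (standard error 0.183, edgeR adjusted p = 3.75e-06). In WT its log2 fold change was -0.31 and did not pass the test (edgeR adjusted p = 0.0817). In NDUFA5 KO it rose, by 1.78, from a mean of 485 to 1660 CPM.

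The share of genes called grew with abundance. Over 5 classes of equal size by average level it was 30.2%, 44.2%, 53.9%, 60.8% and 66.4% from the lowest to the highest. The share at least 2-fold changed ran 24.4%, 17.4%, 15.6%, 16.3% and 21%, so that the lowest class held the fewest calls and the most 2-fold calls. Higher-count genes have smaller errors, and the call shares are not shares of genes regulated. Genes absent at one time and present in every library of the other were few, 11 of them found at ZT6 alone and 8 at ZT0 alone, with at most 20.6 and 18.4 counts per library on average.

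The 4435 higher genes held 19.3 ± 1.64% of the gene counts at ZT0 and 38.6 ± 1.6% at ZT6 (SD, n = 5 each). The 4998 lower genes went from 47.3 ± 2.62% to 28.1 ± 0.997%, and the 9027 genes not called held 33.4 ± 1.02% and 33.3 ± 1.04%. These classes were defined by the same libraries, so the shares describe them and test nothing. The 100 most abundant genes of each library, a measure not tied to the calls, held 16.8% to 20.4% of the counts at ZT0 (median 17.9%) and 19.6% to 20.9% at ZT6 (median 20.8%). The difference of the means was 2.26 percentage points, with overlapping ranges (two-sided exact permutation test over 10 libraries, p = 0.0159, adjusted p = 0.0477 over 3 such tests). For the 10 most abundant genes the difference was 0.163 points (exact p = 0.675) and for the 1000 most abundant 1.27 points (exact p = 0.167).

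The lines were compared as a check of the change in independent disruptions. Line 150 alone gave 6786 calls (36.8%) and line 152 alone 6254 (33.9%). Genes called higher in both numbered 2305 (69% of the rising genes of line 150, 80.6% of those of line 152), and 2601 were lower in both (75.5% and 76.7%). No gene was called in opposite directions in the lines. Across genes, which do not count as independent replicates, the log2 fold changes of the lines correlated with r = 0.794. No gene passed the test of a different change between the lines, and 490 had an unadjusted p under 0.05 (edgeR; with DESeq2 also 0 passed, and 492 were under 0.05). That is less than the share of 0.05 of all genes tested that chance alone would give. With 1 library left out the number ran from 413 (152-3 at ZT6) to 1069 (152-2 at ZT0), still with 0 past the test. The 2 or 3 libraries per line and time limit what this test can detect, so 0 calls do not show that the lines change alike. Library 152-1 is 1 of the 2 ZT0 libraries of line 152; without it, line 152 alone gave 5715 calls.

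Levels at ZT2 place the changes within the morning. COX11 KO differed between ZT2 and ZT0 in 8558 genes (46.4%; 4183 higher, 4375 lower) and between ZT6 and ZT2 in 6771 (36.7%; 3263 higher, 3508 lower). In the later step the balance of the directions turned to more rises without some single libraries, for example to 3381 and 3165 without 150-3 at ZT2. Of the 5 ZT2 libraries 4 carry sample code letter A, while all 5 ZT0 libraries and 4 of the 5 ZT6 libraries carry Z, so both steps run largely along the code letter. With the letter as a covariate 7650 genes were called in the first step, with 83.7% of the calls above among them in the same direction, and 6262 in the second, with 85.7%. These steps share libraries with the comparison of ZT6 and ZT0 and with each other, so they are set side by side as a description, and an error in the ZT2 mean moves the 2 steps in opposite directions. Without 152-1 at ZT0 the first step held 8358 calls.

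Of the 4435 genes higher at ZT6, 1694 were called higher at ZT2 with no call afterwards, and their median log2 difference from ZT0 was 0.8 at ZT2 and 0.81 at ZT6. A further 1274 were called in the later step alone, with medians of 0.03 and 0.89. There were 421 genes that rose in both steps, 356 that rose and then fell part of the way, 101 that fell first and then rose above the ZT0 level, and 589 with no call in either step. Of the 4998 genes lower at ZT6, 2146 were called in the first step alone (medians -0.84 and -0.86) and 1106 in the second alone (-0.05 and -0.71), while 442 fell in both. Another 318 fell and then recovered in part, 230 rose before they fell, and 756 had no call in either step. Among the 9027 genes not called between ZT0 and ZT6, 1009 rose and then fell and 745 fell and then rose.

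**Figure D3:**
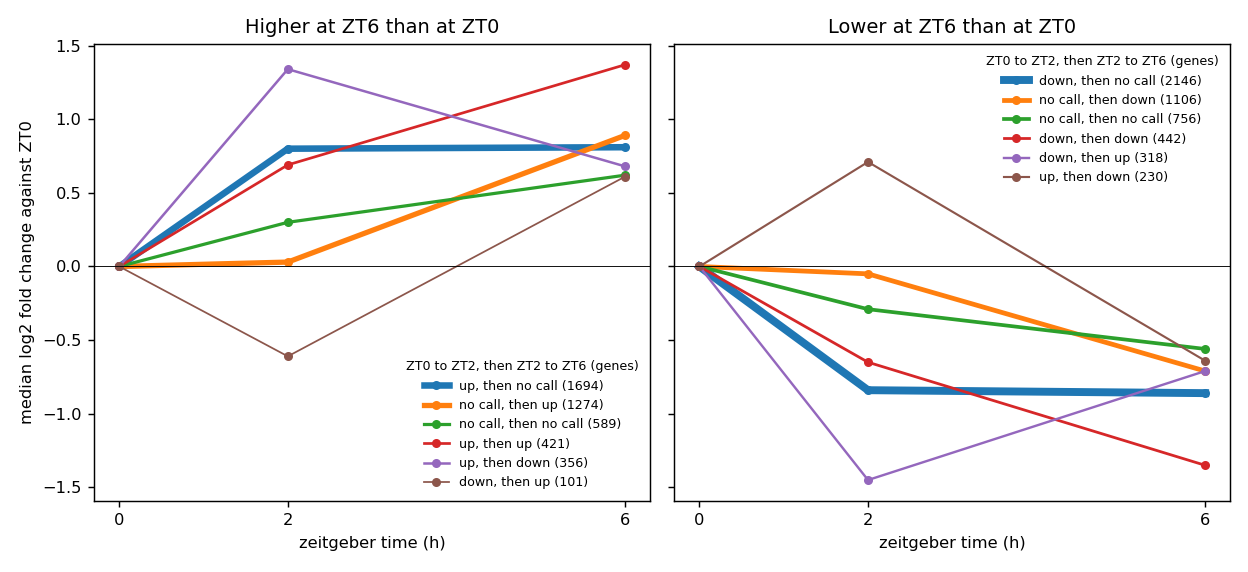
Median log2 fold change against ZT0 (y axis) at ZT2 and ZT6 (x axis, hours of light) for the genes higher (left) and lower (right) at ZT6 in COX11 KO, split by the calls of the 2 steps; the number of genes is given in the key and sets the line width. The classes are defined by the same libraries and so are a description; the largest on either side, 1694 and 2146 genes, had reached its ZT6 level at ZT2.

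Early changes are shown by Pp3c10_9120 and Pp3c24_9770, which rose, and by Pp3c17_3860 and Pp3c1_18010, which fell. Pp3c10_9120 had 0 counts in all ZT0 libraries, 1.37, 2.34, 1.06, 2.41 and 1.6 CPM at ZT2 and 1.24, 2.49, 1.22, 0.165 and 1.06 CPM at ZT6, where it was at least 11-fold higher than at ZT0. Pp3c24_9770, at 0 at ZT0, already had 1.52 to 9.17 CPM at ZT2. Pp3c1_18010 had 13.5, 14.5, 16.8, 9.96 and 17.5 CPM at ZT0, at most 0.609 CPM at ZT2, and 0.62, 0.191, 0.87, 0.989 and 0.352 CPM at ZT6. The night and day libraries were thus fully separated, with a log2 fold change of -4.51 between ZT6 and ZT0 (standard error 0.476, edgeR adjusted p = 1.78e-10). Pp3c17_3860 went from 27.9, 50.1, 16.8, 4.51 and 20.3 CPM to at most 0.304 CPM at ZT2 and 0.574 CPM at ZT6. Library 152-1 was the lowest of the ZT0 libraries for both falling genes.

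Late changes are shown by Pp3c15_4410 and Pp3c13_1430, which rose after ZT2, and by Pp3c3_9610 and Pp3c9_19810, which fell after ZT2. Pp3c15_4410 lay between 0 and 1.66 CPM at ZT0 and between 0 and 0.731 CPM at ZT2, and reached 13.8, 8.22, 15.3, 13.2 and 7.75 CPM at ZT6 (log2 fold change against ZT2 4.93, standard error 0.465, edgeR adjusted p = 2.26e-11). Pp3c13_1430 lay at or below 0.731 CPM in all 10 ZT0 and ZT2 libraries and at 2.79, 8.41, 4.0, 2.31 and 4.4 CPM at ZT6. Pp3c3_9610 had 26.1, 33.9, 18.8, 11.1 and 14 CPM at ZT0, 14.2 to 45.9 CPM at ZT2 and at most 0.382 CPM at ZT6, a log2 fold change against ZT2 of -7.19 (standard error 0.611, edgeR adjusted p = 1.16e-12). For these genes the ZT0 and ZT2 libraries overlap, and the ZT6 libraries stand apart from both.

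Of the genes at least 2-fold higher at ZT6, the median gene had covered 57.9% of its log2 change at ZT2, and of those at least 2-fold lower 70.4%. At ZT2, 345 of the 1702 higher genes lay beyond their ZT6 level and 202 on the far side of their ZT0 level. The corresponding numbers for the 1792 lower genes were 448 and 159.

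The same times of day were compared in WT, to ask which changes of COX11 KO are shared with plants that have the gene. WT and COX11 KO contribute no library to each other's change. In WT 10484 genes changed between ZT0 and ZT6 (56.8%; 5253 higher, 5231 lower), with more libraries than in COX11 KO, so the counts of calls are not compared. Higher in both were 2725 genes, 61.4% of the rising genes of COX11 KO and 51.9% of those of WT. Lower in both were 3058, 61.2% and 58.5% of the falling genes. For comparison, 25.2% of the genes not called in COX11 KO were called higher in WT and 19.9% lower. Opposite calls were fewer, with 373 genes higher at midday in COX11 KO and lower in WT and 249 the other way round. Across genes the log2 fold changes of the 2 genotypes correlated with r = 0.615.

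The change itself differed between COX11 KO and WT in 4917 genes (26.6% of those tested), in 2404 toward higher and in 2513 toward lower values in COX11 KO (edgeR interaction test; median over all genes -0.06). With the code block as a covariate, which gives every genotype the same code effect, the change differed in 5015 genes. Of the 4917, 93.1% were called there in the same direction. Which direction held more genes depended on the scaling and the libraries. DESeq2 size factors in edgeR gave 2590 toward higher and 2296 toward lower values and DESeq2 2655 and 2412, and without 1 library the split ran from 2190 and 2222 (152-1 at ZT6 left out) to 2539 and 1860 (152-2 at ZT0 left out). Among the 2725 genes that rose in both, 214 rose more and 196 rose less in COX11 KO. Among the 3058 that fell in both, 297 fell less and 292 fell more. Of the 2279 genes called higher in WT and not called in COX11 KO, 855 passed the test of a difference, as did 779 of the 1800 called lower in WT and not called in COX11 KO. In the other direction 704 of 1337 rising genes and 866 of 1691 falling genes of COX11 KO without a call in WT passed it. Genes called in 1 genotype alone were picked from the same libraries that this test uses. Such a choice raises the share that passes and fixes its direction, so these counts are a description. The genes at least 2-fold higher in WT (2145) had a median log2 fold change of 1.46 there and 0.91 in COX11 KO, and those at least 2-fold higher in COX11 KO (1702) had 1.39 there and 1.09 in WT. For falling genes the pairs were -1.4 in WT and -1.02 in COX11 KO (1671 genes), and -1.49 in COX11 KO and -0.91 in WT (1792 genes). A list chosen on one genotype is biased toward larger values in it, so the medians are a description.

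**Figure D4:**
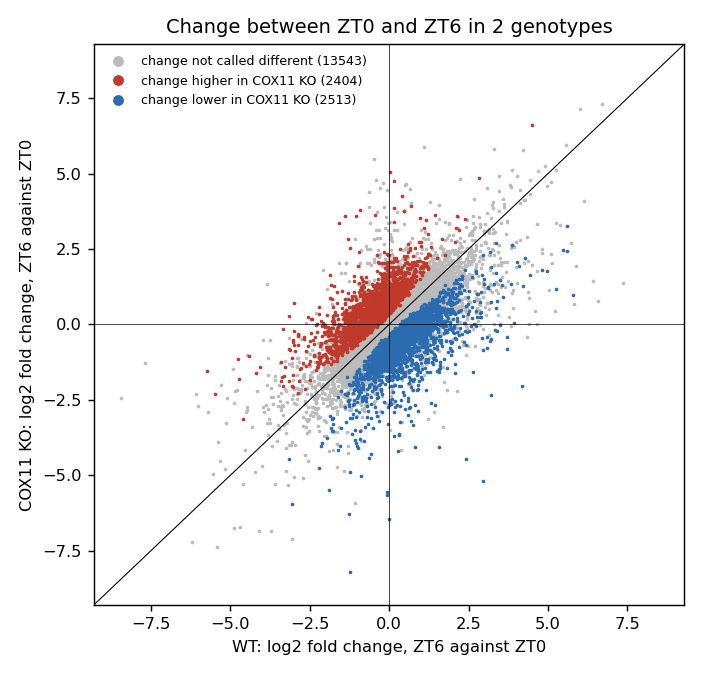
Each point is 1 of the 18460 genes tested, by its log2 fold change between ZT0 and ZT6 in WT (x axis) and in COX11 KO (y axis), with the line of equal change. The 2404 genes whose change was higher in COX11 KO are red and the 2513 whose change was lower are blue; opposite calls occupy the upper left and lower right.

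The largest differences from WT among genes without overlap in COX11 KO were falls. Pp3c25_14630 had 200, 158, 109, 148 and 207 CPM in COX11 KO at ZT0 and 10.2, 9.56, 5.91, 6.92 and 4.93 CPM at ZT6. In WT it stood at a median of 2.79 CPM at ZT0 (1.96 to 4.61, n = 6) and 5.01 CPM at ZT6 (1.3 to 94.7, n = 8). The knockout was thus far above WT at the end of the night. At midday the gene lay between 4.93 and 10.2 CPM in the knockout, against 9.76 CPM or less in all but 1 of the WT libraries. Its log2 fold change was -4.45 in COX11 KO and 2.42 in WT, a difference of -6.86 ± 1.0 (SE, edgeR adjusted p = 1.02e-06), and 1 WT library at ZT6 stood at 94.7 CPM while the other 7 were at or below 9.76.

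Pp3c4_21500 had 25.2, 40.8, 57.8, 73.5 and 76.3 CPM in COX11 KO at ZT0 and 2.79, 4.97, 2.44, 1.48 and 4.93 CPM at ZT6. WT stood at a median of 1.56 CPM (1.29 to 2.56) at ZT0 and 3.13 CPM (1.07 to 11) at ZT6. The log2 fold changes were -4.05 and 1.58, and differed by -5.63 ± 0.88 (SE, edgeR adjusted p = 3.63e-06). Both genes peaked at ZT2 in COX11 KO, Pp3c25_14630 between 264 and 619 CPM and Pp3c4_21500 between 663 and 1260 CPM. In NDUFA5 KO neither changed between ZT0 and ZT6 beyond the test (log2 fold changes -0.07 and 0.39, edgeR adjusted p = 0.933 and 0.506), with means of 106 and 95.2 CPM at ZT0 and 101 and 125 CPM at ZT6.

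On the other side Pp3c3_5720 and Pp3c17_9350 had the largest positive differences from WT, both at low levels. The average log2 CPM of Pp3c3_5720, 1.58, includes NDUFA5 KO at ZT0, where its mean was 15.5 CPM. Whether it passes the limit of 1 without those libraries was not tested. Pp3c3_5720 had 1.14, 1.22, 0.154, 0 and 0.602 CPM in COX11 KO at ZT0 and 3.57, 1.34, 7.48, 7.09 and 3.17 CPM at ZT6. The groups nearly touch, at 1.22 and 1.34 CPM. In WT it fell from a median of 1.76 CPM (0.473 to 2.73) to 0.736 CPM (0 to 1.34). The difference of the log2 fold changes was 4.12 ± 0.729 (SE, edgeR adjusted p = 2.88e-05), and in line 150 alone its rise did not pass the test (1.61, edgeR adjusted p = 0.0846). Pp3c17_9350 went from 6 counts over the ZT0 group to 2.64, 4.21, 2.26, 2.47 and 3.17 CPM, while in WT it did not change beyond the test (means 6.47 and 4.76 CPM). The WT libraries were widely spread, from 0.431 to 14.4 CPM at ZT0 and from 1.67 to 10.1 CPM at ZT6. The difference from WT was 4.06 ± 0.956 (SE, edgeR adjusted p = 0.00121). Its average log2 CPM, 1.6, includes these WT libraries, and whether it passes the limit of 1 without them was not tested. In NDUFA5 KO it rose too (log2 fold change 3.52, edgeR adjusted p = 0.00118).

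Among the genes called in opposite directions, Pp3c12_17760 followed Pp3c3_5720 on the side that rose in COX11 KO. It had 4.81, 3.49, 1.85, 6.88 and 1.2 CPM at ZT0 and 10.2, 7.84, 11.1, 14.2 and 11.1 CPM at ZT6. WT fell from a median of 11.6 CPM (2.9 to 31.0) to 3.37 CPM (1.99 to 5.32). The WT libraries at ZT0 with lower code numbers had 31.0, 16.9 and 12.4 CPM, and those with higher ones 10.8, 4.2 and 2.9 CPM. Of these, 4.2 and 2.9 CPM lie within the WT range at ZT6. The difference of the log2 fold changes was 3.51 ± 0.598 (SE, edgeR adjusted p = 1.52e-05). With the code block as a covariate its rise in COX11 KO was 1.07 and missed the threshold (edgeR adjusted p = 0.054). It also missed it in line 150 alone (1.46, edgeR adjusted p = 0.0667) and within the lower code numbers (0.69, edgeR adjusted p = 0.616).

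**Figure D5:**
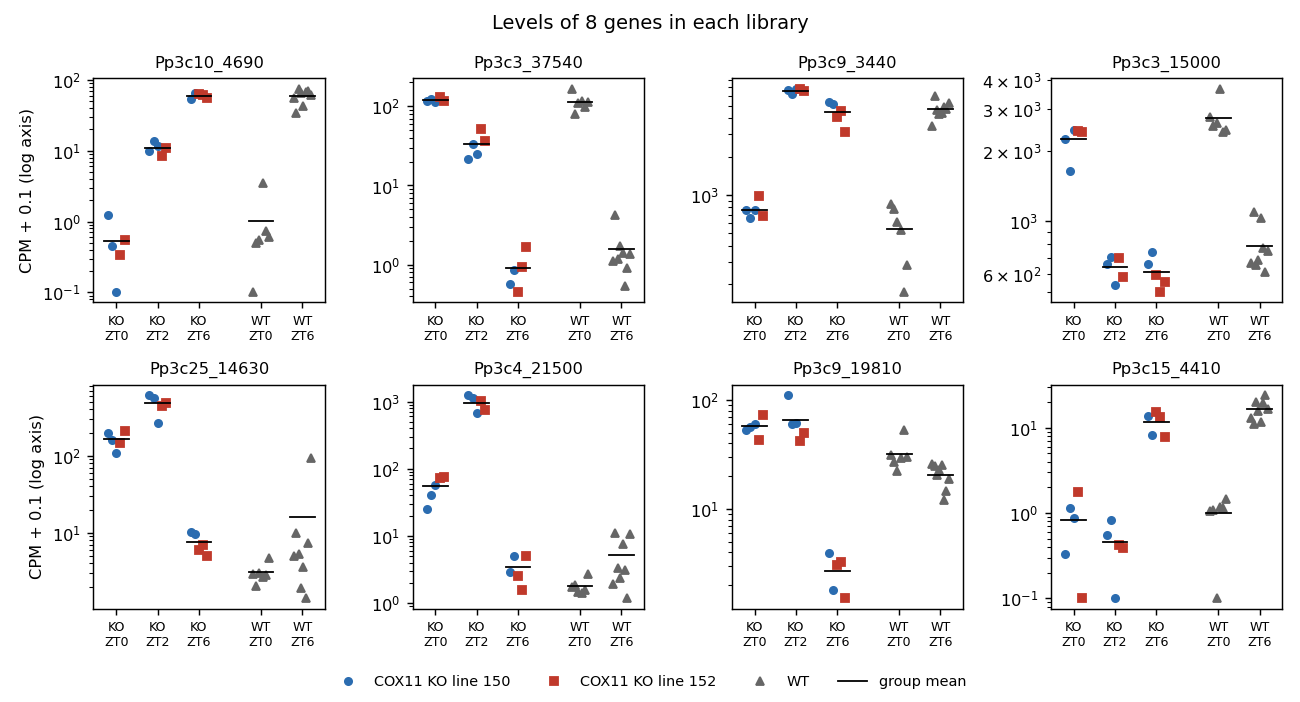
Levels of 8 named genes in each library, as CPM + 0.1 on a log axis (y axis), for COX11 KO at 3 times and WT at ZT0 and ZT6; blue circles are line 150, red squares line 152 and grey triangles WT, and bars are group means. Pp3c25_14630 and Pp3c4_21500 stand high in COX11 KO at ZT0 and ZT2 and within the WT range at ZT6, whereas Pp3c10_4690 and Pp3c3_37540 change in the same direction in both genotypes.

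NDUFA5 KO served as the second respiratory knockout. Between ZT0 and ZT6 it changed in 13296 genes (72%; 6852 higher, 6444 lower). Of the COX11 KO changes, 2793 rises (63%) and 3196 falls (63.9%) were shared with NDUFA5 KO, where they made up 40.8% of the rises and 49.6% of the falls. Genes not called in COX11 KO were called higher in NDUFA5 KO in 38.4% and lower in 27.2%, so the shared percentages stand on another base than those for WT. Opposite calls numbered 791 for genes higher in COX11 KO at midday and 597 for genes lower. Across genes r was 0.518. With library totals in place of TMM the shared rises were 3217 and the shared falls 2489, and the opposite calls 445 and 991.

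The change differed between the knockouts in 9760 genes (52.9%), 4564 toward higher and 5196 toward lower values in COX11 KO, with a median over all genes of -0.12. Without NDUFA5 KO library 46-3 at ZT6 it differed in 9473. With library totals only 10353 were called, 27.9% toward higher values instead of 46.8%, around a median of -0.48. Among the 2793 genes that rose in both, 1129 rose less in COX11 KO and 134 rose more. Among the 3196 that fell in both, 1247 fell less in COX11 KO and 136 fell more. The smaller change in COX11 KO prevailed on both sides with library totals too, in 1629 against 129 of the shared rises and in 756 against 177 of the shared falls. The genes at least 2-fold changed in NDUFA5 KO had medians of 1.85 (4799 higher) and -1.64 (3258 lower) there, and 0.52 and -0.6 in COX11 KO. Of the genes at least 2-fold changed in COX11 KO, the rising ones had a median of 1.39 there and 1.77 in NDUFA5 KO, and the falling ones -1.49 and -1.14. As for WT, a list chosen on one genotype is biased toward larger values in it. The shared rises and falls were picked from the same libraries that the interaction test uses. The medians and these counts are therefore a description.

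Among genes with an average log2 CPM above 1 and no overlap in COX11 KO, Pp3c10_6760 had the most negative called difference from NDUFA5 KO. In COX11 KO it fell from 57, 60.9, 46.6, 102 and 54.6 CPM to 9.61, 11.5, 20.3, 27.2 and 26.9 CPM, whereas in NDUFA5 KO it rose from 2.51 ± 1.67 (SD, n = 4) to 103 ± 84.5 CPM (n = 5). The log2 fold changes were -1.74 and 5.24, and the difference -6.98 ± 1.03 (SE, edgeR adjusted p = 3.1e-07). Without both 152-1 at ZT0 and 150-2 at ZT6, the fall in COX11 KO was 1.38 on the log2 scale and missed the threshold (edgeR adjusted p = 0.0903). The fall passed the test in line 150 alone (-2.38, edgeR adjusted p = 0.0371) and missed it in line 152 alone (-1.65, edgeR adjusted p = 0.104; -1.14 and 0.396 without 152-1 at ZT0), within the lower code numbers (-2.24, edgeR adjusted p = 0.0978) and against a fold change of 1.5 (adjusted p = 0.0693). The difference from NDUFA5 KO stayed past the threshold without any 1 of the 10 COX11 KO libraries. Pp3c14_6470 followed, with a rise of 5.57 in NDUFA5 KO (15.9 ± 5.89 to 765 ± 717 CPM) and a log2 fold change of -1.16 in COX11 KO that did not pass the test (140 ± 35 to 62.8 ± 14.9 CPM, edgeR adjusted p = 0.0964). In the fit of the 10 COX11 KO libraries alone, where the spread of the other groups does not enter, that adjusted p was 0.000107.

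On the positive side Pp3c3_5720, which rose in COX11 KO, fell in NDUFA5 KO from 15.5 ± 5.34 to 1.09 ± 0.777 CPM (difference 6.65, standard error 0.718, edgeR adjusted p = 2.67e-10). Its place on this list may rest on its level in NDUFA5 KO at ZT0, which enters both the limit on the average level and the difference. Pp3c24_12720 went from 37.7 ± 8.83 CPM to 0 counts in NDUFA5 KO, and it met the limit on the average level through those NDUFA5 KO libraries at ZT0 alone, so the size of its fitted difference depends on the prior count and is not given as a result. In COX11 KO it fell from 0.458, 1.05, 0.308, 0.711 and 0.752 CPM to 1 count over the ZT6 group, a ratio of 19.1 (95% counting interval 3.02 to 797). The call of its difference rests on that count, since without library 152-1 at ZT6 the edgeR adjusted p was 1.0.

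Over the 3 genotypes, 2217 genes rose and 2420 fell in COX11 KO, WT and NDUFA5 KO alike. Neither of the other genotypes had a call in the same direction for 1134 rises and 1164 falls of COX11 KO; of these, 720 and 529 were called in the opposite direction in WT, NDUFA5 KO or both, and 414 and 635 were called in neither. Both interaction tests were passed by 930 of the 4435 rises and 752 of the 4998 falls of COX11 KO. Their change was more positive (rises) or more negative (falls) than in WT and in NDUFA5 KO. These last calls hold for TMM scaling, under which the median of all genes differs from NDUFA5 KO by the -0.12 given above. The genes were first called on the COX11 KO libraries that enter both tests. An error in those means therefore moves the call and both tests in the same direction.

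The first part of an ID is a prefix that runs from Pp3c1 to Pp3c27, and 27 prefixes had at least 50 genes tested. The share of genes called lay between 42.9% and 54.6% across them, around the 51.1% of all genes. Differences between ZT6 and ZT0 in the median level of a prefix were small, from -0.0578 to 0.00785 on the log2 scale. In 5 of the 27 (Pp3c1, Pp3c8, Pp3c10, Pp3c14 and Pp3c20) every ZT6 median lay below every ZT0 median, with the smallest p the design allows (two-sided exact permutation test over libraries, p = 0.00794, adjusted p = 0.0429). With library totals only, and without any 1 of 8 of the 10 libraries (152-1 at ZT0 among them), no prefix passed. For Pp3c2 the difference was -0.0419 (exact p = 0.0397, adjusted p = 0.107), and 52.8% of its genes were called.

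Within prefix Pp3c2, Pp3c2_26060 and Pp3c2_9940 rose most among genes without overlap. Pp3c2_26060 had 0.916, 1.57, 0.925, 0.711 and 0.451 CPM at ZT0, 18.4 to 24 CPM at ZT2 and 13.2, 7.27, 5.91, 7.75 and 5.99 CPM at ZT6 (log2 fold change 3.11, standard error 0.316, edgeR adjusted p = 7.34e-11). Pp3c2_9940 rose from 0.949 to 1.5 CPM at ZT0 to 7.75 to 16.2 CPM at ZT6. Pp3c2_28140 fell from 38.9, 35.1, 33.6, 19.9 and 36.9 CPM to 2.48, 4.21, 4.35, 2.8 and 4.23 CPM (log2 fold change -3.19, standard error 0.302, edgeR adjusted p = 1.22e-11), with 152-1 again the ZT0 library nearest to the midday level. Pp3c2_10940 fell from 3.32 to 15.9 CPM to 0.522 to 1.41 CPM.

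Neighbours in ID order were described over 16977 pairs of tested genes, leaving out every gene with a fractional count. Of the 2085 genes of the table with such counts, 2028 had an adjacent ID with a fractional count in the same library, and 96.2% of the fractional values ended in 0.5. How counts were divided between IDs is not stated in the labels. In 4553 pairs both members were called, and 54.6% of these changed in the same direction, against 50.2% from the shares of higher and lower calls. Across the pairs of neighbours the changes correlated with r = 0.0829. In the 44 pairs with both members at least 4-fold changed, 81.8% moved in the same direction, a subset for which no base share was computed. Their counts were whole in every library; whether such pairs share reads in another way was not tested.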

How the data were processed

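A single table, deposited by the authors, holds estimated counts of each gene in every library, not normalized. Per the submitters' processing notes the tools were Bowtie2 2.2.5, SAMtools 1.6 and HTSeq 2.0.2. The genome build was not given in the sources used here. Per the labels' protocols, libraries were made with a QuantSeq 3′ kit. The table's design had been taken as raw counts, but 2.35% of the values were not whole within 1e-06, affecting 2085 of 32926 genes (1423 of those tested, none of them a gene named here), so the deposited estimated counts were rounded to whole numbers. Of 57 columns, 47 carry the code of a sample used here, and the other 10 were not used. HTSeq's 5 summary lines name no gene; they held 29.8% to 39.9% of the counts of the 10 COX11 KO libraries at ZT0 and ZT6 and were left out.

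Groups, lines and replicates were taken from the sample titles. The labels do not say that replicates came from separate cultures, so the spread behind each p-value is that of these libraries and could be technical. Pairs of libraries within the COX11 KO groups at ZT0 and ZT6 differed by a chi-square per gene of 2.44 to 17.4, above the 1 of sampling noise, so none was treated as a copy.

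Genes were tested in R 4.3.3 with edgeR 4.0.16 and limma 3.58.1. The filter was filterByExpr over 9 groups of genotype and time (18460 genes), libraries were scaled by TMM, and 1 mean per group was fitted to all 47 libraries (common biological coefficient of variation 21.8%). The quasi-likelihood F test was used with a Benjamini-Hochberg FDR of 0.05 over all genes tested. The change was compared between genotypes by interaction contrasts, and between lines in a model with 1 mean per line and time. Standard errors were derived from the F statistic. Log2 CPM uses a prior count of 2. Single values per library were tested by exact permutation over the 252 arrangements of 5 against 5 libraries, where no two-sided p can be below 0.00794. The edgeR test of ZT6 against ZT0 in COX11 KO was tried on simulated data, and the other tests were not.

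The comparison, the gene lists, the prefix Pp3c2 and the boundary of the code block (letter Z with numbers below 79) were chosen with earlier results of these data known. Named genes are at most 2 IDs per direction and question, since 0 IDs were found in the reference table (assembly ASM5946719v1). They were ranked by log2 fold change, interaction or mean CPM among genes past FDR 0.05 whose average log2 CPM was above 1 (at least 2-fold in place of that limit in the ranking by mean CPM) and whose values did not overlap between the ZT0 and ZT6 libraries of COX11 KO. A fold against 0 counts is a lower bound against a floor of 3 counts over the group, and ratios with 1 to 3 counts have an exact 95% binomial interval; both cover counting error only. Alternatives were DESeq2 1.42.0, other scalings, no filter, sample codes or line as covariates, fewer genes and fewer libraries.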

Additional observations from a re-analysis of the deposited data

Results flagged for a closer look

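A library lay far from the others of its group in 31 of 201 searches of a level, share or principal component within a group. Chance gives about 1 in 20 in groups of well-measured values, but in 5 of the 31 every other library had 0 counts, where any count stands apart by construction, and other searches also rest on a few counts; the searches are not independent either, so no excess is read from the number. On the first principal component COX11 KO 152-1 at ZT0 stood at -36.6, toward the ZT6 libraries. The same library was high for Pp3c10_6760 (102 CPM against 46.6 to 60.9 in the others) and low for Pp3c2_28140 (19.9 CPM against 33.6 to 38.9). In the other COX11 KO libraries at ZT0 and ZT6, 150-2 at ZT0 was low for Pp3c3_15000 (1640 CPM), 150-1 at ZT6 was high for Pp3c2_26060 (13.2 CPM) and for Pp3c3_37497 (0.465 CPM, 3 counts, against 0 in the others), and 152-1 at ZT6 was high for Pp3c24_12720 (0.174 CPM, 1 count). At ZT2, 150-3 was high for Pp3c12_17760 (16.7 CPM), 150-2 for Pp3c13_1430 (0.731 CPM) and 150-1 for Pp3c9_19810 (112 CPM).

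Among the WT libraries at ZT0, library 4 was high for Pp3c10_4690 (3.45 CPM), Pp3c3_15000 (3670 CPM) and Pp3c3_37497 (18.5 CPM), library 5 for Pp3c17_3860 (162 CPM), Pp3c24_12720 (0.21 CPM) and Pp3c9_19810 (53.6 CPM), and library 6 for Pp3c25_14630 (4.61 CPM), while library 3 was low for Pp3c15_4410 (0 CPM). At ZT6 the WT libraries that stood high were 5 for Pp3c23_15870 (5400 CPM), 8 for Pp3c25_14630 (94.7 CPM), 3 for Pp3c3_37497 (1.07 CPM), and 2 for Pp3c3_37540 (4.16 CPM) and Pp3c3_9610 (0.181 CPM). In NDUFA5 KO the library 46-2 was high at ZT0 for Pp3c17_3860 (26.5 CPM). At ZT6, 46-3, whose title and characteristics name different lines, was low for Pp3c12_17760 (2.97 CPM) and high for Pp3c2_10940 (2.31 CPM) and Pp3c2_9940 (146 CPM), 48-1 was high for Pp3c13_1430 (10.3 CPM) and Pp3c17_3860 (2.05 CPM), 46-1 for Pp3c3_9610 (0.304 CPM) and 48-2 for Pp3c9_19810 (26.2 CPM).

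The change between ZT0 and ZT6 differed between COX11 KO and WT in 4917 genes (edgeR interaction test), 9 of the 27 named genes among them. In these the log2 fold change of COX11 KO minus that of WT was 4.12 for Pp3c3_5720, 4.06 for Pp3c17_9350 and 3.51 for Pp3c12_17760. It was -6.86 for Pp3c25_14630, -5.63 for Pp3c4_21500, -3.79 for Pp3c9_19810, -2.88 for Pp3c14_6470, -2.75 for Pp3c10_6760 and -0.78 for Pp3c23_15870.

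Between COX11 KO and NDUFA5 KO the change differed in 9760 genes, 16 of the 27 named genes among them. The log2 fold change of COX11 KO minus that of NDUFA5 KO was positive for Pp3c3_5720 (6.65), Pp3c10_4690 (6.18), Pp3c2_28140 (2.49) and Pp3c2_26060 (1.51). It was negative for Pp3c10_6760 (-6.98), Pp3c14_6470 (-6.73), Pp3c3_37497 (-5.67), Pp3c4_21500 (-4.44), Pp3c25_14630 (-4.38), Pp3c3_37540 (-3.68), Pp3c9_19810 (-2.96), Pp3c23_15870 (-2.86), Pp3c9_3440 (-2.47) and Pp3c18_8100 (-0.69). The fit also gave 7.14 for Pp3c24_12720 and 3.82 for Pp3c10_9120, which are no measure of size: at least 1 group had 0 counts, so they depend on the prior count, and Pp3c24_12720 was picked through its level in NDUFA5 KO at ZT0.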

How the results depend on the processing

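The comparison of ZT6 and ZT0 runs largely along the code block, as given above, so the fit with that covariate is a limited check. The count of 9433 genes called between ZT6 and ZT0 stayed within 1.5 times under DESeq2 (9518), other scalings (9353 and 9373), no filter (9259), sample code as a covariate (9408 and 7762), without Pp3c2 genes (8835), without genes with fractional counts (8752), in the 10 libraries alone (9188), with line as a block (8927) and with 1 library left out (8561 to 9442). It was 3494 at 2-fold or more, 3481 against a fold change of 1.5 (glmTreat), 6254 in line 152 alone (5715 without 152-1 at ZT0) and 2928 within the lower code numbers, a fit with 1 ZT0 library; fewer libraries or a stricter criterion enter by construction. Line and replicate number share a label across times, but same-numbered libraries did not deviate together (correlations -0.2 to 0.18 over 4 pairs, 1 of them above 0.1, and 1 of 4 ZT0 libraries correlating best with its own number), so they were not treated as pairs; a fit with the replicate block called 7372.

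Leaving out 1 library gave 4371 to 4970 genes differing from WT (3525 of the 4917 called in all 10 fits), 9348 to 9609 differing from NDUFA5 KO (8408 of 9760), 7941 to 8358 for ZT2 against ZT0, 5949 to 6546 for ZT6 against ZT2, 0 differing between lines, 0 to 7 prefixes, and 1.89 to 2.8 points for the 100 most abundant genes. The prefix calls (5) went to 0 with library totals only. The share of counts gave 0.163 points with the 10 and 1.27 points with the 1000 most abundant genes, both short of the threshold. The causes were not tested.

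Of 998 values of the 27 named genes under alternatives, 975 kept their side of the threshold, 20 lost it (12 genes, most within the lower code numbers), 3 gained it (Pp3c14_6470), and none changed sign. Depth limits genes with a few counts per library, such as Pp3c24_12720 and Pp3c10_9120. The fits without 152-1 at ZT0 and 150-2 at ZT6, within the lower code numbers, without fractional genes, of line 152 without 152-1 at ZT0, and those leaving out a library in the 2 steps were chosen after seeing the data.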
